A study of Mus musculus with 21 samples.

Results

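DNase I hypersensitive sites (DHS) and TCF1 binding were examined around 3 mouse genes, Foxo1, Rag2 and Rag1, in early progenitors of innate lymphoid cells. The members were all peaks of 4 pooled peak lists that overlapped a window of 220 kb on chromosome 3 (51980000 to 52200000, mouse build mm9) or a window of 160 kb on chromosome 2 (101350000 to 101510000). The first window holds Foxo1 at about 52072000 to 52154000, and the second holds Rag2 and Rag1 at about 101464000 to 101490000. There were 75 such peaks among 215239 in the 4 lists. The DHS peaks merged into 41 regions among 102384, of which 26 lay in the Foxo1 window and 15 in the Rag window.

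RAG1 and RAG2 together form the recombinase that cuts DNA at antigen receptor genes and so starts V(D)J recombination. Their genes are neighbours read towards each other, Rag2 from one end of the pair and Rag1 from the other, and they are active in lymphoid progenitors and in developing B and T cells. FOXO1 is a forkhead transcription factor held out of the nucleus by PI3K and AKT signalling, and in early B cells it activates Rag1, Rag2 and the interleukin-7 receptor gene Il7r. Distal elements before Rag2, among them the enhancer Erag, have been described in the B lineage. Innate lymphoid cells carry no rearranged antigen receptor, although part of them descend from cells that once expressed RAG1.

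DNase-seq was run on 3 successive bone marrow stages of C57BL/6 mice, with 3 libraries per stage, 300 sorted cells per library and 5 minutes in 0.3 units of DNase I. The all-lymphoid progenitor (ALP) and the ILC precursor (ILCP) were labelled Tcf7EGFP/+, and the early innate lymphoid progenitor (EILP) was labelled Tcf7EGFPnull/+. All 3 stages were sorted as lineage-negative cells with Kit and 2B4. ALP lacked integrin a4b7 and had high Flt3 and IL-7Ra, EILP had a4b7 and the Tcf7 reporter without Thy1, and ILCP had a4b7, the Tcf7 reporter, Thy1 and IL-7Ra. TCF1, the transcription factor encoded by Tcf7, was mapped in EILP with the same null reporter label by CUT&RUN, which releases the DNA beside an antibody-bound protein, in 6 libraries against 4 IgG libraries of 500 cells each. A further 2 CUT&RUN libraries, titled TCF1 but described as IgG, were placed in no group. Some of the CUT&RUN libraries are technical repeats, and the labels do not say whether other libraries came from separate mice. No age of the mice is given in the sources used. The peak lists hold no expression values, so the sorted identities were not checked against marker genes.

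Stage and genotype label cannot be told apart in any comparison with EILP, since the null reporter label goes with that stage alone. The file headers name all 3 DNase files WT. The authors pooled the libraries of a stage before calling peaks. The values therefore carry no error between replicates, and stages could not be tested against each other. The pooled files held 11236009 to 12681410 filtered tags for the DNase stages and 2418839 for TCF1. Height is the number of extended tags over the summit of a peak, and scaled height is that number per 10000000 filtered tags. Intervals are exact 95% intervals for the counting of tags or regions only, and those for height ratios take no account of each summit being the highest point of its peak. Some sites are given in detail for having the largest ratios of a window. Neither the intervals nor the ranks of these ratios take account of that choice. Strength is the authors' fold enrichment over the local background, and it was ranked only within a list.

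The letters before the 3 gene starts are shown because the DHS at these starts differed in how many stages listed them. They come from RefSeq on build GRCm38.p6, not the build of the peaks, and all 3 genes were found there. Each line gives the 250 bases before the start, 5′ to 3′ on the gene's strand, at chr3:52268087-52268336 (plus strand) for Foxo1, chr2:101624462-101624711 (plus strand) for Rag2 and chr2:101649533-101649782 (minus strand) for Rag1. Capitals mark matches, on either strand, to the E-box (CANNTG), the CCAAT box or the RUNX core (TGTGGT). All CCAAT boxes here read on the other strand.
Foxo1: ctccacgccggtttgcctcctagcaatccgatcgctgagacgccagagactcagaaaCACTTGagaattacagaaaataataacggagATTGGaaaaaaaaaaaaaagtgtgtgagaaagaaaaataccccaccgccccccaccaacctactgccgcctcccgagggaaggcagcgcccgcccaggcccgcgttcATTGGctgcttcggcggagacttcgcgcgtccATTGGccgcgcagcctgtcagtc
Rag2: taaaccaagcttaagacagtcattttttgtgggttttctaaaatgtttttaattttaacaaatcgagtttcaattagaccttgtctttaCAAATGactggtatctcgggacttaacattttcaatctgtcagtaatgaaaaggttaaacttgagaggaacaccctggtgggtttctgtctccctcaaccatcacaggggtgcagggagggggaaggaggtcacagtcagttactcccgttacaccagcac
Rag1: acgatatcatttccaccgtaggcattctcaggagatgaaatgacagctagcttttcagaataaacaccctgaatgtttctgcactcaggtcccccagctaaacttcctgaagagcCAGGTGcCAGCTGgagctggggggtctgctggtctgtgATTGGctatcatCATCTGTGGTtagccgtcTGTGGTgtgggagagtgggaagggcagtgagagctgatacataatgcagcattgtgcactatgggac
The Foxo1 stretch held 3 CCAAT boxes and 1 E-box. The Rag1 stretch held 3 E-boxes, 1 CCAAT box and 2 RUNX cores, 1 of which overlaps an E-box, and the Rag2 stretch held 1 E-box. Neither CTTTG (TCF core) nor TGTTTAC (FOXO core) occurred in any of the 3 stretches on either strand. Among 32851 promoters of the same length, 66.2% held an E-box, 33.8% a CCAAT box, 14.0% a RUNX core, 48.6% the TCF core and 3.17% the FOXO core. The Foxo1 stretch had 20 CpG pairs and 56.0% G and C bases, whereas Rag2 had 3 CpG pairs and 41.2%, and Rag1 had 3 CpG pairs and 50.8%. The median over all promoters was 6 CpG pairs and 52.4%.

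The question of how these loci changed from stage to stage was first put to the Rag pair. The DHS at the Rag1 start was listed in ALP and in no later stage. At the Rag2 start ALP and ILCP each had a DHS at a place of its own, with no peak in EILP. A DHS 5.18 kb inside the span and another on the side before the Rag1 start were taller in EILP and ILCP than in ALP. For the second of these, the intervals of both ratios to ALP included 1. The ALP list held 10 peaks in the Rag window, the EILP list 6 and the ILCP list 9. Per 100 kb that is 6.25, 3.75 and 5.625. Over the effective genome the 3 lists held 3.56, 3.75 and 3.85 per 100 kb, so EILP stood at its overall density and ALP and ILCP above theirs. Of the 10 ALP regions, 6 had no EILP peak (60.0%, interval 26.2 to 87.8), against 24.1% of all ALP regions. The Foxo1 window had 16, 17 and 16 peaks in ALP, EILP and ILCP, or 7.27, 7.73 and 7.27 per 100 kb. Of its 16 ALP regions, 5 had no EILP peak (31.2%, interval 11.0 to 58.7). The difference between the 2 windows was not tested.

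**Figure D1:**
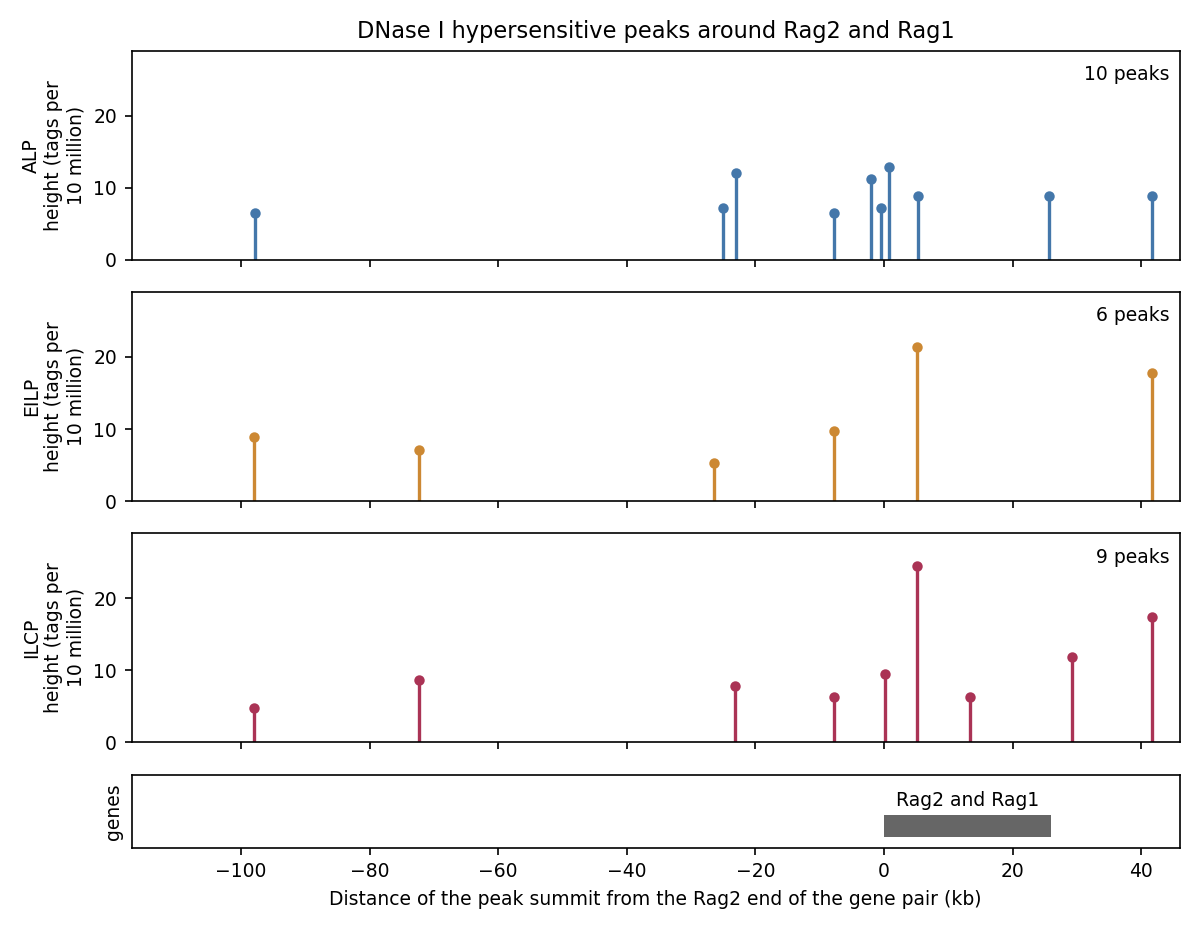
Scaled height of each DHS peak (vertical lines with points, tags per 10000000 filtered tags) against the distance of its summit from the Rag2 end of the gene pair in kb, in ALP, EILP and ILCP. The bar marks the approximate span of Rag2 and Rag1. Peaks at both ends of the bar are present in ALP, and ILCP has one at the Rag2 end. The 2 tallest peaks in EILP and ILCP lie 5.18 kb and 41.6 kb from the Rag2 end.

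At the Rag2 start, the ALP list held a DHS of 16 tags at 101464744 to 101464908 on chromosome 2, with a scaled height of 12.9 and a fold of 6.30. Its summit lay 0.81 kb inside the approximate start of the span, and no peak of EILP or ILCP overlapped it. Before it, ALP had a DHS of 14 tags at 101461853 to 101462039 and one of 9 tags at 101463433 to 101463590. None of these 3 ALP peaks at the Rag2 start was overlapped by a peak of EILP or ILCP. The EILP peak nearest to the DHS at the start lay 4.37 kb away. ILCP had 1 peak at the Rag2 start, of 12 tags at 101464153 to 101464288. Its summit was 0.197 kb inside the span and 0.613 kb from that of the ALP peak inside the span. The span ends are approximate, so which of these peaks lies nearer to the Rag2 start cannot be told. The 2 intervals did not overlap, so they count as different regions.

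At the Rag1 start, ALP had a DHS of 11 tags at 101489692 to 101489882, with a fold of 6.15 and a summit 0.262 kb inside the end of the span. EILP and ILCP had none. The nearest EILP peak was 15.9 kb away. The nearest ILCP peak, of 15 tags at 101493123 to 101493302, lay 3.47 kb from it on the side before the Rag1 start. This ILCP site had the highest fold (7.77) among the regions of the Rag window that were not listed in all 3 stages, apart from the site 23.1 kb before Rag2 described below.

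A missing peak does not mean closed chromatin, and it sets no exact upper limit on height. The EILP background at the sites is not known, so that of the nearest EILP peak was used. This peak lay 4.37 kb from the ALP site of 16 tags at the Rag2 start and 15.9 kb from the Rag1 start. At such a background the lowest height in the EILP list was 7 tags for the Rag2 site and 5 for the Rag1 site. The 5th percentile was 9 and 6 tags. The lowest heights equal scaled heights of 6.23 and 4.45, against 12.9 and 8.86 measured in ALP. They are a rough guide only. Sites of this strength were often listed in ALP and not in EILP elsewhere in the genome. Of 11802 ALP regions within 10% of the fold of that Rag2 site, 27.9% had no EILP peak, and for the Rag1 start the share was 29.1% of 11723. For the ALP peak 0.5 kb before Rag2, the share was 58.7%.

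Farther before Rag2, the site at 101440816 to 101441014, with its summit 23.1 kb before the span, had 15 tags in ALP, no peak in EILP and 10 tags in ILCP. Its scaled heights were 7.89 in ILCP and 12.1 in ALP, a ratio of 0.653 for ILCP over ALP (interval 0.262 to 1.55), whose interval includes 1. Of 10690 ALP regions of like fold, 14.1% had no EILP peak, a lower share than at the Rag gene starts. This site was the only region of the 41 with a peak in ALP and ILCP but not in EILP, a pattern held by 4.09% of all regions. Whether it is the known Erag element was not checked, since no mm9 annotation was used. ALP had a second peak close by, of 9 tags at 101438851 to 101438977, and EILP had one of 6 tags at 101437463 to 101437628. None of these 3 sites overlapped another.

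The site 72.3 kb before Rag2, at 101391641 to 101391822, was listed in EILP with 8 tags and in ILCP with 11, and not in ALP. It was the only Rag site listed in both later stages and absent from ALP. The site at 101365996 to 101366221 had 8, 10 and 6 tags in ALP, EILP and ILCP, and the site at 101456151 to 101456333 had 8, 11 and 8. Both were low in every stage, with intervals of every ratio that included 1.

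The DHS 5.18 kb inside the span, counted from its Rag2 end, was listed in every stage, unlike those at the Rag gene starts. At 101469000 to 101469373 it had 11 tags in ALP, 24 in EILP and 31 in ILCP. Its scaled heights were 8.86, 21.4 and 24.4, lowest in ALP and close together in the later stages. The ratio was 2.41 for EILP over ALP (interval 1.14 to 5.45) and 2.76 for ILCP over ALP (interval 1.35 to 6.09), while ILCP over EILP was 1.14 (interval 0.650 to 2.04). Over all shared regions the median ratio was 1.11 for EILP over ALP, a shift of 0.14 on the log2 scale, and relative to it the site's ratio was 2.18. Of 49631 regions shared by EILP and ALP, 98.5% had a lower ratio. The fold of this peak exceeded 30.3% of the ALP list, 79.3% of the EILP list and 84.7% of the ILCP list.

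In the RefSeq gene table, Iftap, a gene on the minus strand, overlaps Rag2. No mm9 annotation was used, so whether this DHS belongs to the Rag2 body or to the start of Iftap cannot be told apart here.

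The last site of the window, at 101505528 to 101505730 and 15.6 kb past the Rag1 end of the span, had a similar course, with 11, 20 and 22 tags in ALP, EILP and ILCP. Its scaled heights were 8.86, 17.8 and 17.3. The ratio for EILP over ALP was 2.01 (interval 0.918 to 4.64) and for ILCP over ALP 1.96 (interval 0.910 to 4.47), so both intervals included 1. Its fold of 13.1 in EILP and 13.4 in ILCP was the highest in the Rag window and exceeded 91.0% and 91.2% of those lists. On this side, before the Rag1 start, the next coding gene is Traf6, which encodes a ubiquitin ligase of receptor signalling.

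**Figure D2:**
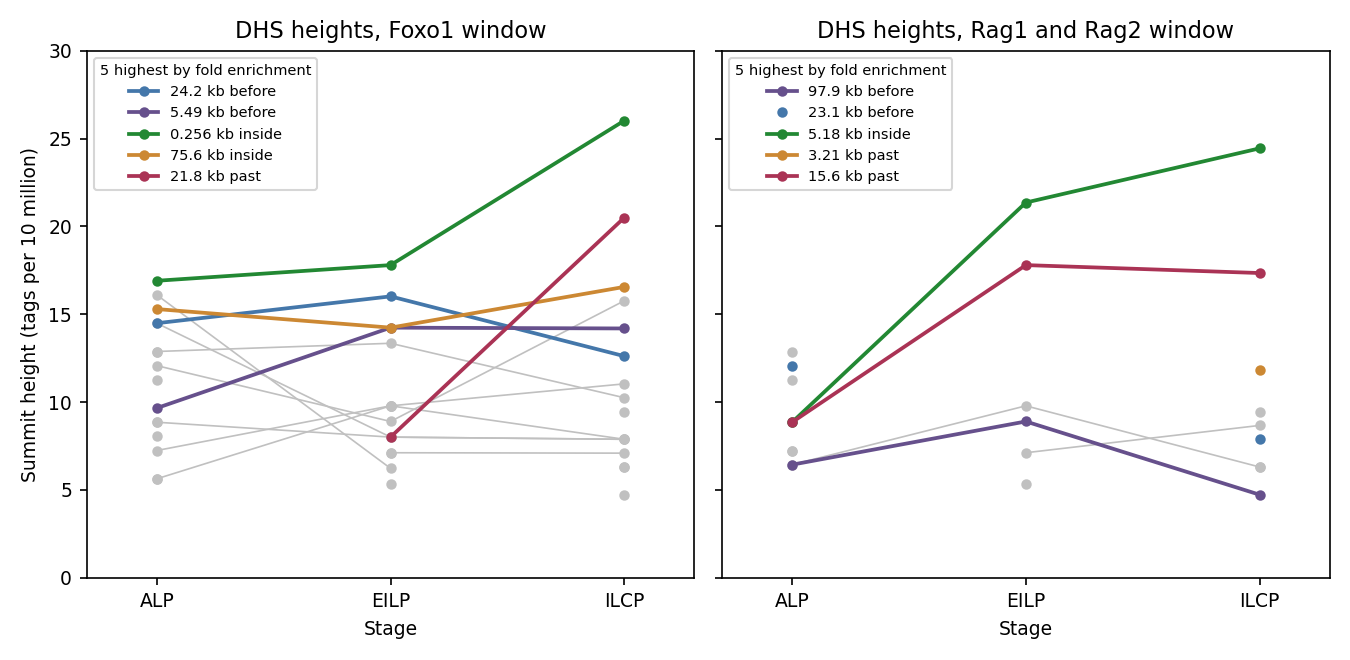
Scaled summit height (tags per 10000000 filtered tags) of each DHS region in ALP, EILP and ILCP, with lines joining neighbouring stages that both list the region. Colours mark the 5 regions with the highest fold enrichment in each window, named by the distance of their summit before, inside or past the gene span. The Foxo1 start reaches 26.0 in ILCP, and the site 5.18 kb inside the Rag span stands at 8.86, 21.4 and 24.4 in the 3 stages.

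Foxo1 kept a DHS at its start in all 3 stages. At 52072119 to 52072389 on chromosome 3, with a summit 0.256 kb inside the approximate start, it had 21 tags in ALP, 20 in EILP and 33 in ILCP. Its scaled heights of 16.9, 17.8 and 26.0 made it the tallest site of the window in each stage. The ratio was 1.54 for ILCP over ALP (interval 0.864 to 2.80) and 1.46 for ILCP over EILP (interval 0.814 to 2.69), so both intervals include 1. The EILP over ALP ratio was 1.05 (interval 0.541 to 2.04). The fold exceeded 57.5%, 59.8% and 82.2% of the ALP, EILP and ILCP lists.

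A second site near the start, 2.07 kb inside the span at 52074021 to 52074139, was listed with 16 tags in ALP alone. At the background of the nearest peak, the lowest listed height was 7 tags in EILP and 8 in ILCP. The DHS 5.49 kb before the start, at 52066418 to 52066644, had 12, 16 and 18 tags in ALP, EILP and ILCP. Its ratio of 1.47 for ILCP over ALP had an interval of 0.670 to 3.34.

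Before the gene lay 15 of the 26 Foxo1 regions. Of these 15, 7 were listed in all stages (46.7%, interval 21.3 to 73.4), against 39.0% of all merged regions. A pair lay at 52046461 to 52046670 and 52047646 to 52047907, about 25.4 and 24.2 kb before the start. The first had 16, 15 and 13 tags and the second 18, 18 and 16 in ALP, EILP and ILCP. The second held the highest EILP fold of the window, 10.7, above 81.9% of the EILP list. For both sites the interval of every ratio between stages included 1.

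A cluster about 70 kb before Foxo1 was less uniform. Its site at 52000358 to 52000540 had 20 tags in ALP and 7 in EILP and was not listed in ILCP. The ratio for EILP over ALP was 0.387 (interval 0.138 to 0.953), or 0.350 relative to the median of all shared regions, and only 0.469% of these regions had a lower ratio. The neighbouring site at 52001946 to 52002213 had 15, 10 and 20 tags in the 3 stages and the next, at 52003308 to 52003587, had 9, 11 and 14. Of these 3 neighbours, 1 was thus tallest in ALP and 2 were tallest in ILCP, although for those 2 the interval of every ratio included 1.

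The far end of the window, 88.1 kb before the start, held a site of 18 tags in ALP, 9 in EILP and 10 in ILCP at 51983727 to 51984117, with a ratio of 0.544 for ILCP over ALP (interval 0.224 to 1.24). Of the sites not listed in every stage, 51991345 to 51991664 had 14 tags in ALP alone. Its fold of 8.15 was the highest ALP fold among the Foxo1 regions without an EILP peak, and of 9543 ALP regions of like fold 11.0% had none in EILP. The site at 51994057 to 51994290 had 11 tags in EILP and 10 in ILCP, and the site 34.4 kb before the start, at 52037525 to 52037690, had 7 tags in ALP, 11 in EILP and no ILCP peak.

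Within the Foxo1 span there were 8 regions, of which 5 were listed in ALP, 3 in EILP and 5 in ILCP. Of all 102384 merged regions, 65429, 68996 and 71149 were listed in these stages. The interval was 24.5 to 91.5% for ALP and for ILCP and 8.52 to 75.5% for EILP, and each includes the share over all regions. Apart from the start, a DHS at 52147511 to 52147881 was listed throughout, 75.6 kb inside the span and towards the gene's end, with 19, 16 and 21 tags in ALP, EILP and ILCP. A smaller region beside it, at 52147310 to 52147490, had 8 tags in EILP and 9 in ILCP. The long stretch between the 2 ends held sites listed in a single stage only. These were 52127031 to 52127206 and 52135719 to 52135946 in ALP, with 7 and 11 tags, and 52084680 to 52084829 and 52104638 to 52104789 in ILCP, with 6 and 12 tags. No EILP peak lay between them.

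Past Foxo1, the shared site with the highest ratio of the window stood 21.8 kb beyond its end, at 52175628 to 52175958. The site was not listed in ALP, had 9 tags in EILP and 26 in ILCP, and its scaled heights were 20.5 in ILCP and 8.01 in EILP. The ratio of 2.56 for ILCP over EILP (interval 1.16 to 6.21) was higher than that of 99.5% of the 49369 regions shared by these stages. Its ILCP fold of 12.5 was the highest in the window and exceeded 88.2% of the ILCP list. Of 6536 ILCP regions of like fold, 8.69% had no ALP peak. At the background of the nearest ALP peak, 24.6 kb away, the lowest height in the ALP list was 8 tags. The ALP background at the site itself is not known. The next coding gene on this side in the RefSeq table is Cog6, a Golgi complex subunit, and on the other side Maml3, a Notch coactivator. The gene that this site acts on was not measured.

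Farther out, EILP alone had a pair at 52194865 to 52194973 and 52195123 to 52195335, with 6 and 11 tags. The remaining Foxo1 regions were low. ALP alone had a peak of 10 tags at 52050485 to 52050601, EILP alone one of 8 tags at 52061937 to 52062036, and ILCP alone had peaks of 8 tags each at 51993253 to 51993356 and 52057970 to 52058134. The site at 52061700 to 52061857 had 11, 9 and 10 tags in ALP, EILP and ILCP. In the Rag window the only other region was an ILCP peak of 8 tags at 101477379 to 101477527, 13.4 kb inside the span.

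**Figure D3:**
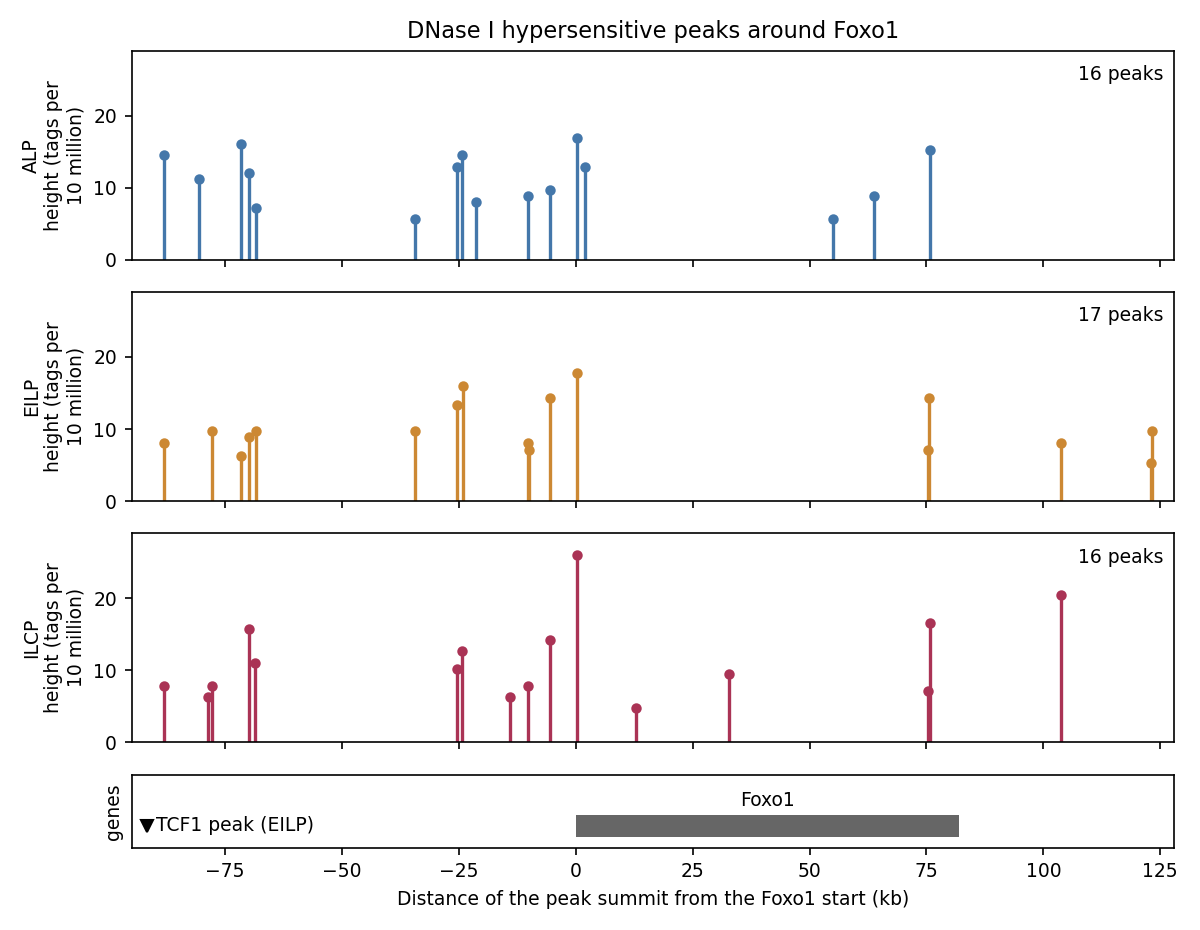
Scaled height of each DHS peak (tags per 10000000 filtered tags) against the distance of its summit from the approximate Foxo1 start in kb, for ALP, EILP and ILCP. The bar marks the Foxo1 span and the triangle the single TCF1 peak of the window, 91.8 kb before the start. The start is the tallest site in every stage, and the site about 104 kb from the start is absent in ALP and second in height in ILCP.

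By stage pattern, 13 of the 41 regions were listed in all stages (31.7%, interval 18.1 to 48.1), against 39.0% of all merged regions. ALP alone accounted for 10 of 41 (24.4%, interval 12.4 to 40.3), against 11.3% of all regions, and these were 5 in each window. In the Rag window they were 5 of 15 (33.3%, interval 11.8 to 61.6), and in the Foxo1 window 5 of 26 (19.2%, interval 6.55 to 39.4). EILP alone held 4 regions and ILCP alone 7, against 9.65% and 17.2% of all regions. ALP with EILP held 2, both at Foxo1, against 9.52%, and EILP with ILCP held 4, against 9.27%. In all, 28 of 41 regions (68.3%) were listed in fewer than 3 stages, against 61.0% of all. From EILP to ILCP, 8 of 25 ILCP regions had no EILP peak, against 30.6% of all, and 6 of 23 EILP regions had no ILCP peak, against 28.4%. From ALP to EILP, 8 of 23 EILP regions had no ALP peak, against 28.1%. Of the 26 ALP regions, 11 had no EILP peak, against 24.1%.

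**Figure D4:**
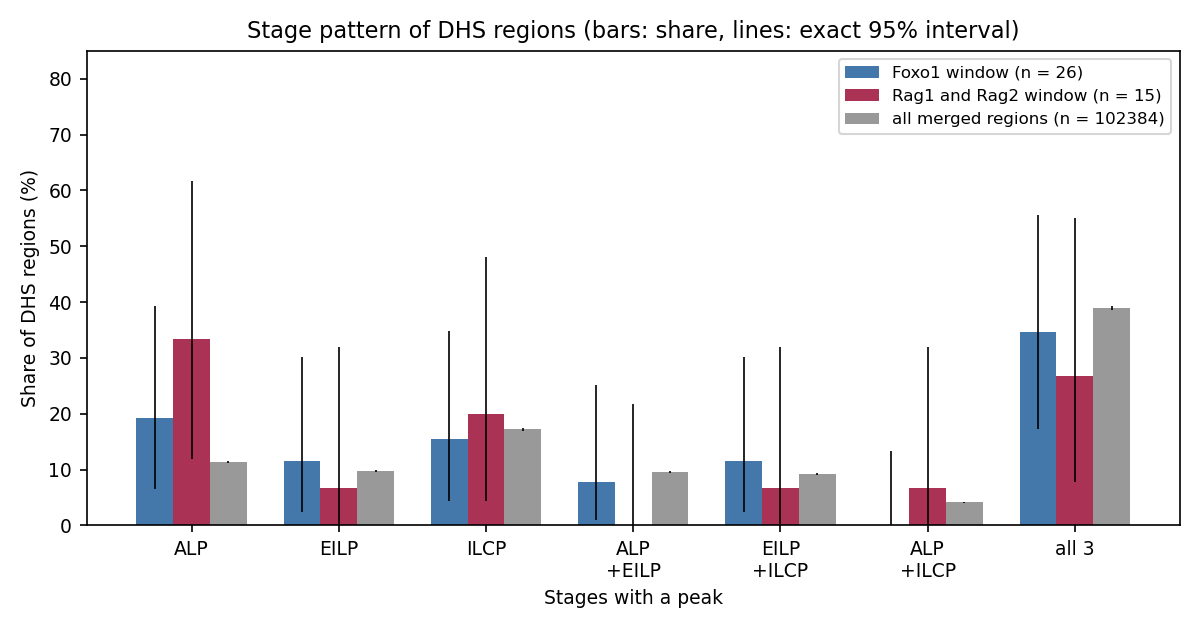
Share of DHS regions with each stage pattern in the Foxo1 window (26 regions), the Rag window (15) and all merged regions (102384). Bars start at 0 and lines are exact 95% binomial intervals. The bars for ALP alone stand at 19.2% and 33.3% against 11.3%, and with so few regions the intervals are wide.

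Among regions shared by 2 stages, the Rag sites were taller in EILP than in ALP in 4 of 4 cases, against 60.6% of all shared regions. Their summed scaled height was 57.8 in EILP and 30.6 in ALP, a ratio of 1.89 (interval 1.25 to 2.90). The ratio of sums over all shared regions was 1.08. The median of the single ratios was 1.76 for the Rag regions and 1.11 over all shared regions. Such sums and medians cover shared regions only and do not give the change of a window as a whole. Left out here are 6 of 10 Rag regions of ALP, without an EILP peak, and 2 of 6 of EILP, without an ALP peak. Of the 4 shared Rag regions, 3 were at least 1.5 times higher in EILP, against 16.4% of all shared regions, and none was at least 1.5 times lower, against 8.04%. In the Foxo1 window the summed height was 126 in EILP and 134 in ALP over 11 regions, a ratio of 0.946 (interval 0.750 to 1.19), with 1 region at least 1.5 times higher and 2 at least 1.5 times lower. From EILP to ILCP the summed ratios were 0.947 (interval 0.679 to 1.32) over 5 Rag regions and 1.17 (interval 0.939 to 1.45) over 12 Foxo1 regions. At that step 2 of the 12 Foxo1 regions were at least 1.5 times higher in ILCP, against 10.0% of all, and 2 of the 5 Rag regions at least 1.5 times lower, against 15.9%. Over both windows, 7 of 17 regions were taller in ILCP than in EILP, against 44.5% of all, and 7 of 14 were taller in ILCP than in ALP, against 53.6%. The steps share files and are not independent.

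**Figure D5:**
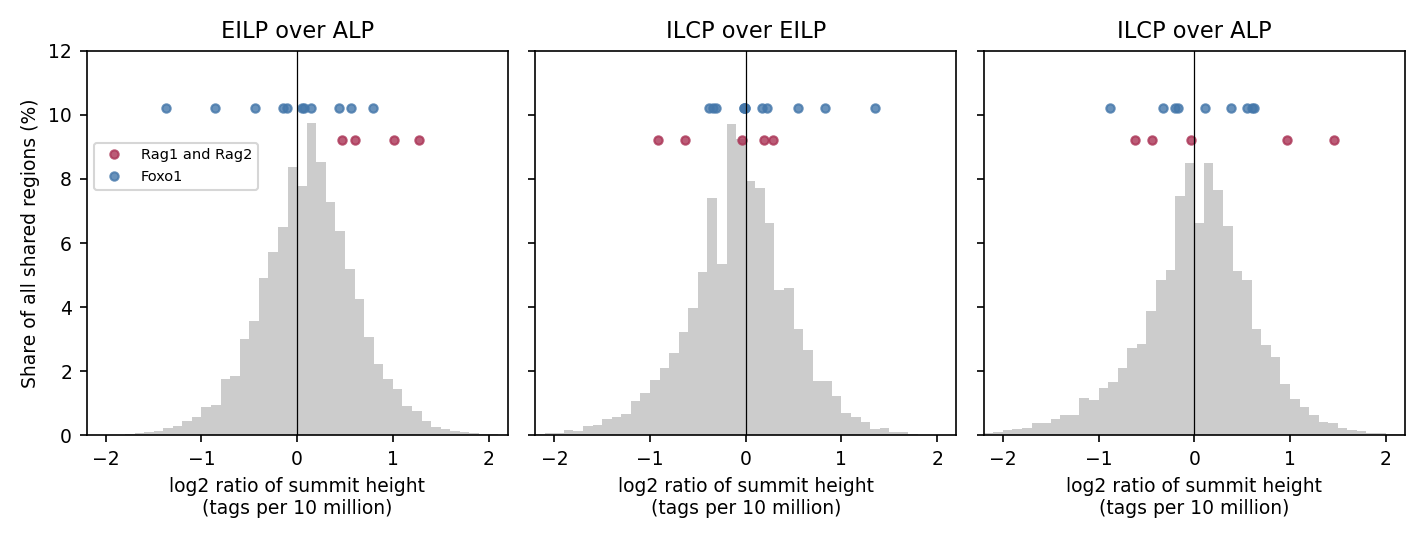
Distribution of the log2 ratio of scaled summit height over all regions shared by 2 stages (grey bars, share in percent), with the regions of the Foxo1 window (blue points) and the Rag window (red points) placed above at their own ratios. All 4 Rag points lie to the right of 0 for EILP over ALP, as do 60.6% of all shared regions, and the Foxo1 points lie on both sides in every panel.

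TCF1 was measured to ask where it binds in EILP, and 1 TCF1 peak was listed in the 2 windows. That is 0.455 per 100 kb in the Foxo1 window and 0 in the Rag window, against 0.357 per 100 kb of the effective genome, so windows of this size hold about 1 peak or none at the overall rate. Of the 41 regions, 0 overlapped a TCF1 peak (interval 0 to 8.60%), and this interval includes the 4.16% of all merged regions. The Rag window held 0 of the 6679 TCF1 peaks, and the peak nearest to the gene pair lay 106 kb away. The Foxo1 window held 1, at 51980225 to 51980324, with 4 tags, a fold of 4.29 and a summit 91.8 kb before Foxo1. Its fold exceeded 13.9% of the TCF1 list. It overlapped no DHS, unlike 65.6% of TCF1 peaks, and the nearest DHS summit, in EILP, was 2.71 kb away. The list starts at 3 tags and its median height is 5, so weaker binding was not detectable at this depth. The pooled control of the TCF1 calls includes, per the file headers, the library number of 2 libraries titled TCF1 and described as IgG, which were placed in no group, and the part this has in the absence of peaks was not tested.

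Peaks also lay just outside the windows. Past the Foxo1 window, 0.109 to 0.334 kb beyond its edge, ALP, EILP and ILCP had peaks of 19, 10 and 12 tags, while the last listed sites inside were the EILP pair of 6 and 11 tags. Past the Rag window, 8.41 to 8.42 kb beyond its edge, the 3 stages had peaks of 30, 38 and 30 tags, whereas the last site inside had 11, 20 and 22.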

How the data were processed

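The 4 peak lists used were each made by the authors from libraries pooled into 1 file. Per the file headers they come from MACS version 2.1.1.20160309 at a q-value cutoff of 0.05, with 50 bp tags, 1 tag kept per position and fragments of 100 bp. DNase lists had no control and a background window of 10000 bp. The TCF1 list had a pooled control described as IgG. By library number it included the 2 libraries titled TCF1 that were placed in no group. Coordinates are in mm9, a build named in the submitters' processing notes, and the sources used here do not name the aligner. The deposited pileup signal is the height of a peak, the deposited fold enrichment is a ratio to local background, and −log10 of the q-value was used for a stricter cutoff.

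DHS peaks of the 3 stages were merged where they shared 1 bp, with the highest peak per stage kept. Heights were scaled to 10000000 filtered tags. Ratios have exact conditional binomial intervals, and shares have Clopper-Pearson intervals (scipy 1.17.1, Python 3.11.15). Local background was worked out from height and fold, with 1 added to height and background. Regions of like strength have a fold within 10%. The functions were tested on simulated lists. No p-value was computed, because pooled lists have no replicates. The members and lists were chosen with earlier results of these data known. All 41 regions are described. Those given in detail followed a rule: per window, the 5 highest folds, the 5 strongest not listed in every stage, those nearest to the span ends, and the 5 largest height ratios at each step. Lists of related genes were not located, since no mm9 annotation was used.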

Additional observations from a re-analysis of the deposited data

How the results depend on the processing

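No paired analysis was possible because each peak list pools its libraries, and leaving out a replicate was not possible either. Of 118 alternative values for the main results, 105 stayed within 1.5 times of the count or within the counting interval of the ratio, and 13 did not. Other overlap rules, a distance of 500 bp for absence and the TCF1 overlap settings moved none beyond that. Neither did scaling to the median ratio or fold in place of height. The stricter cutoff, −log10 q of at least 2 for DHS and TCF1 peaks, moved none by construction. Every peak of the windows already passed it, with a lowest value of 2.19 for DHS and 2.36 for the TCF1 peak. Its values are counted among the 105 but do not test the results. With the gene spans and 20 kb on each side in place of the windows, Foxo1 had 7, 6 and 8 peaks in ALP, EILP and ILCP, with 2 regions gained and 3 lost at EILP and 1 lost at ILCP. The Rag pair then had 3 EILP peaks, with 0 gained at EILP and 0 lost at ILCP. With equal numbers of the strongest peaks per list, EILP alone and ALP with EILP had 1 region each in the Foxo1 window, and 0 and 1 in the Rag window. For the 22 sites chosen by rule, 86 of 88 values kept the number of stages, those of the stricter cutoff again by construction. The exceptions, with equal numbers of the strongest peaks per list, were 101365996 to 101366221 with 2 stages and 52000358 to 52000540 with 1. DHS heights of 6 to 33 tags in the windows limit the precision of every ratio.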
